A study of Mus musculus with 6 samples.

Results

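Neurexins, neuroligins and calsyntenins are synaptic adhesion proteins, and their RNA on the ribosomes of D2 neurons was compared between mice with and without knockout of the kinase gene Gsk3b. The members were all rows of the transcript table with the gene name Nrxn2, Nrxn3, Nlgn1, Nlgn2, Nlgn3, Clstn1, Clstn2 or Clstn3. These are 8 of 47729 genes and 56 of 115220 transcripts, of which 30 are annotated as protein-coding. A gene total is the sum of the FPKM of all listed transcripts of a gene, and FPKM stands for fragments per kilobase of transcript, set relative to all mapped fragments of a library. Of the 56 transcripts, 38 had a mean of at least 1 FPKM over all libraries and were tested, and 2, both of Nrxn2, were listed at 0 in every library. All 8 gene totals passed the same filter.

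Neurexins sit on the presynaptic membrane and bind many partners across the cleft, among them the neuroligins of the postsynaptic membrane. Each neurexin gene has a promoter for a long alpha form and an internal promoter for a short beta form, and alternative exons at several splice sites tune which partner is bound. Neuroligin-1 is known from excitatory synapses, neuroligin-2 from inhibitory synapses and neuroligin-3 from both. Calsyntenins are postsynaptic cadherin-like proteins that bind kinesin light chain and are cut by gamma-secretase, and calsyntenin-3 is also known as a synapse organiser that binds neurexins.

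The libraries were made by RiboTag immunoprecipitation, which pulls down ribosomes through a hemagglutinin tag on the Rpl22 subunit, from the medial prefrontal cortex (mPFC) of adult male D2Cre/LSL-Flag-Cas9/RiboTag mice of the C57BL/6 strain label, injected at 2.5 to 3 months of age and used 3 weeks later. The 3 Ctrl libraries came from mice given AAV GFP and the 3 libraries of Gsk3sKO in mPFC D2 (Gsk3sKO) from mice given AAV Gsk3sgRNA/GFP. Both groups therefore carried Cre from a bacterial artificial chromosome with the D2 promoter, Cas9 and the tagged ribosomes, and the control virus held no sgRNA. Uninfected D2 cells also carry the tag, so a library can hold RNA of cells without the sgRNA. The sources used here do not say whether a library is 1 mouse or a pool, so the spread that p-values rest on is that of 3 libraries a group and could be technical.

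No read counts are given. Judged by how low FPKM values are spaced, the libraries hold about 41.6 to 64.2 M units each, where a unit may be 1 read or part of one, so the depth is known only roughly. Between 40787 and 55841 transcripts were above 0 per library. The Gsk3b gene total was 35.6, 53.8 and 56.5 FPKM in Ctrl and 36.9, 37.0 and 33.6 in Gsk3sKO, a log2 difference of -0.40 (SE 0.19, adjusted p = 0.773 in limma) that was -0.61 without Ctrl replicate 1. FPKM counts edited and intact RNA together, so this does not measure editing. Drd2, the D2 receptor itself, had 1.58, 6.02 and 14.1 FPKM in Ctrl and 8.32, 5.96 and 7.28 in Gsk3sKO, while the summed level of 5 neuron markers lay between 1952 and 2133 FPKM in all 6 libraries and that of 6 astrocyte markers between 82.0 and 104 FPKM. The defining marker of the tagged cells was thus above 0 in every library but varied widely within Ctrl. Drd1, Adora2a and Ppp1r1b, the other dopaminoceptive markers listed, were also lowest in Ctrl replicate 1, at 2.83, 0 and 25.3 FPKM. They were highest in Ctrl replicate 3, at 4.98, 5.27 and 48.5 FPKM. Of all 12874 gene totals tested, 844 were called at an unadjusted p under 0.05 in limma, and 79.3% of these were lower in Gsk3sKO. With libraries rescaled by their median ratio, 65.6% of 802 calls were lower.

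All 8 genes were read in every library, over a wide range of levels per length. The calsyntenin gene Clstn1 had the highest gene total, with a mean of 353 ± 29.6 FPKM (SD, n = 6), and stood at percentile 99.25 of all gene totals tested. Clstn3 followed at 101 ± 7.35 FPKM (SD, n = 6), and the order of Clstn1, Clstn3 and the rest was the same in 6 of 6 libraries with no overlap of the ranges. Nrxn3 at 50.6 ± 8.89 and Nrxn2 at 49.6 ± 6.60 FPKM (SD, n = 6) could not be ordered by gene total, since Nrxn3 was the higher in 3 of 6 libraries. Transcripts without a full coding annotation held 40.0% to 70.7% of the Nrxn3 total but 5.95% to 32.2% of the Nrxn2 total. In full coding transcripts Nrxn2 had the higher means, with long and short sums of 33.1 and 15.3 FPKM in Ctrl, beside 24.9 and 1.98 for Nrxn3. In Gsk3sKO these were 29.3 and 8.09 FPKM for Nrxn2 and 23.1 and 2.15 for Nrxn3. Nlgn2 at 35.1 ± 3.69 FPKM (SD, n = 6) was below Nrxn2 in 6 of 6 libraries, although the ranges overlapped. Below it, Clstn2 at 30.4 ± 3.77, Nlgn3 at 24.2 ± 7.17 and Nlgn1 at 19.6 ± 6.60 FPKM (SD, n = 6) each overlapped with the next, and each step was kept in 4 of 6 libraries. The lowest of the 8, Nlgn1, was still at percentile 72.58 of all gene totals tested.

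**Figure D1:**
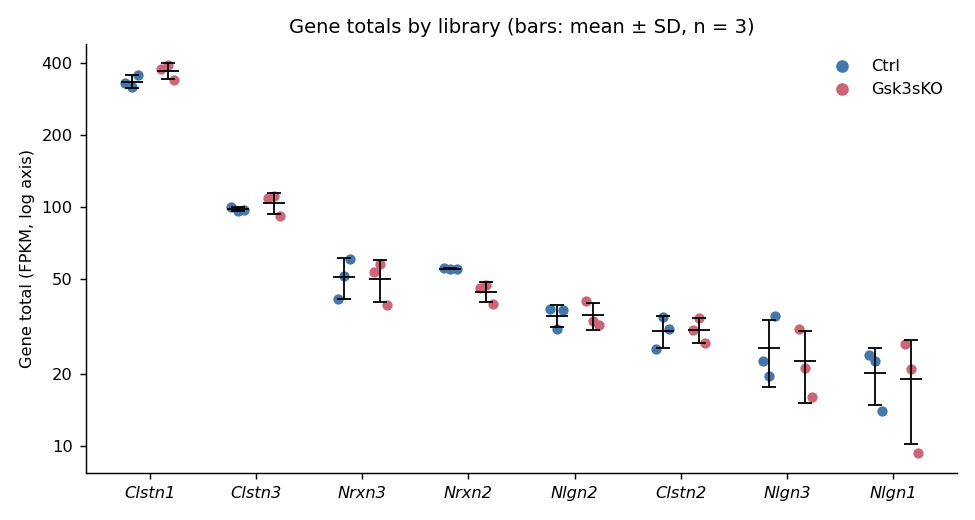
Gene total of each member in FPKM (log axis) for every Ctrl (blue) and Gsk3sKO (red) library, with the mean and SD of 3 libraries as bars. The groups overlap for 7 genes, and for Nrxn2 the 3 Gsk3sKO libraries, at 39.2 to 47.2 FPKM, lie below the 3 Ctrl libraries, at 54.8 to 55.4 FPKM.

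Between the groups, the gene totals of these families differed little. In limma on log2(FPKM + 1), 1 of the 8 gene totals (12.5%) was called at an unadjusted p under 0.05, where 6.56% of all gene totals tested were called, and 0 of 8 passed Benjamini-Hochberg adjustment over all gene totals (lowest adjusted p = 0.750 in limma, with 0.0466% of all gene totals called after adjustment). The called total was lower in Gsk3sKO, the direction of 5.20% of all gene totals. Log2 differences are Gsk3sKO minus Ctrl throughout and understate the change of low values. Of the 8 differences 4 were above 0 and 4 below, with a median of -0.01 beside -0.06 for all gene totals. Summed over the family, the neurexins were at 106 ± 9.57 FPKM in Ctrl and 94.2 ± 14.3 in Gsk3sKO (SD, n = 3 each; 2-sided exact permutation test, p = 0.4). The neuroligins were at 81.0 ± 6.86 and 76.8 ± 20.3 FPKM (SD, n = 3 each; exact permutation p = 0.8). The calsyntenins were at 463 ± 20.2 and 506 ± 41.4 FPKM (SD, n = 3 each; exact permutation p = 0.2). With 3 libraries against 3 the exact test cannot go below p = 0.1, and in such tissue fewer cells of a type and less RNA per cell cannot be told apart.

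Transcripts varied far more than gene totals. The coefficient of variation over the 6 libraries was 7.28% to 33.7% for the 8 gene totals, and the median over the 38 tested transcripts was 83.7%, beside 54.0% for all tested transcripts. Of the 38, 11 were listed at 0 in at least 1 library (28.9%, beside 25.5% of all tested transcripts), although the gene total was 9.29 FPKM or more in every library. An exact 0 in such a table can be a failed split of reads between overlapping transcripts. Of the 38 transcripts, 4 were called at an unadjusted p under 0.05 (10.53%, where 5.56% of all tested transcripts were called), and all 4 were lower in Gsk3sKO, the direction of 3.75% of all tested transcripts. None passed adjustment (lowest adjusted p = 0.563 in limma, with 0 of 21584 transcripts called after adjustment). The groups did not overlap for 4 of the 38, where 11.2% of all tested transcripts did not, and 3 of these 4 were lower (6.96% of all tested transcripts) and 1 was higher (4.28%). The 4 called transcripts were Nlgn3-202, Clstn3-202, Clstn1-204 and Nrxn2-202, from 4 different genes, and without Ctrl replicate 2 the count was 2.

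**Figure D2:**
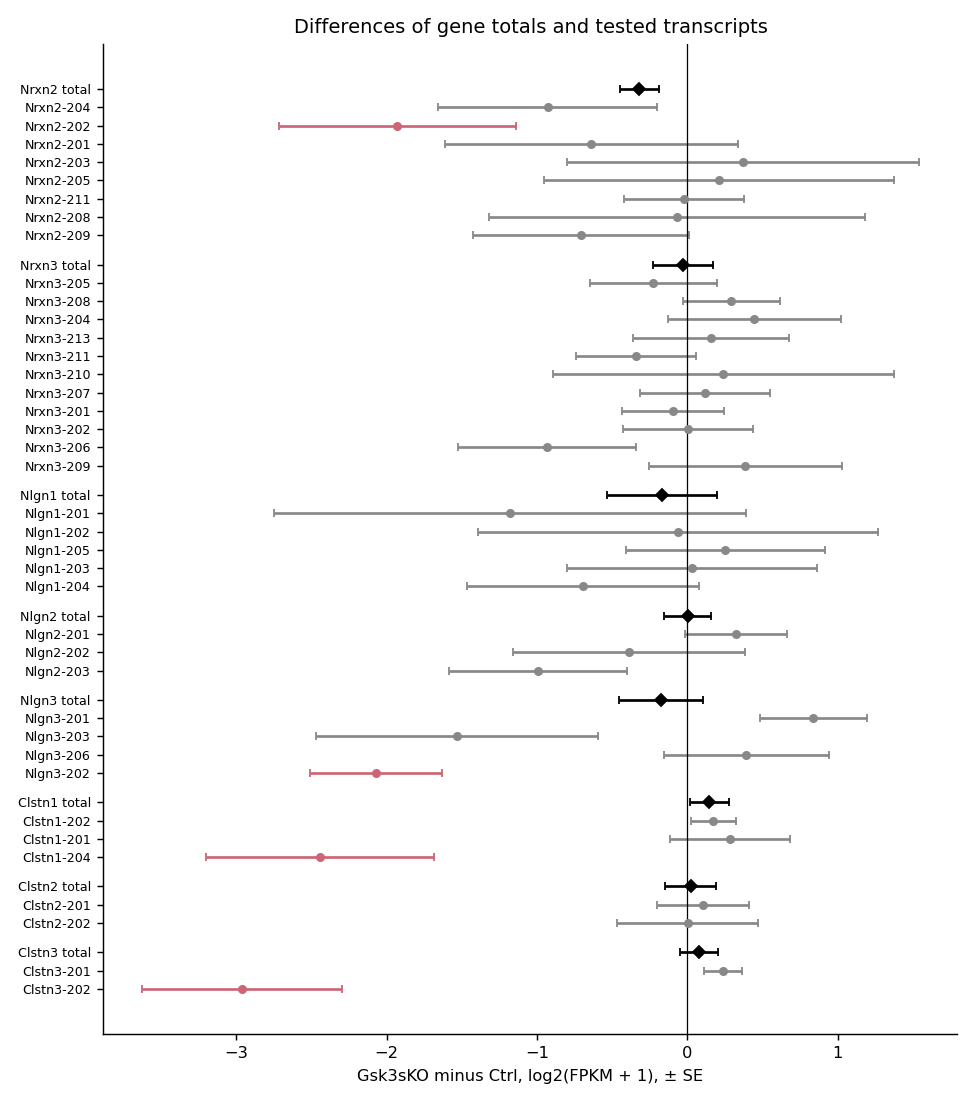
Gsk3sKO minus Ctrl difference of log2(FPKM + 1) with its SE for the 8 gene totals (black diamonds) and the 38 tested transcripts (circles, red at an unadjusted limma p under 0.05). The gene totals lie between -0.32 and 0.15, while the 4 red transcripts lie between -2.96 and -1.93.

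Nrxn2 (ENSMUSG00000033768, chromosome 19 of GRCm38 from 6418731 to 6544169, plus strand) encodes neurexin-2 and was the member whose total was called. Its gene total was 55.4, 55.1 and 54.8 FPKM in Ctrl and 46.0, 47.2 and 39.2 in Gsk3sKO. All 3 Gsk3sKO libraries were below the 3 closely spaced Ctrl libraries, as was the case for 8.30% of all gene totals tested. The means were 55.1 ± 0.311 and 44.1 ± 4.31 FPKM (SD, n = 3 each), a 1.25-fold lower level with a log2 difference of -0.32 (SE 0.13, unadjusted p = 0.0396, adjusted p = 0.750 in limma). The call was lost under median-ratio rescaling (log2 difference -0.26), with limma without a trend, when only protein-coding transcripts were summed, and without any 1 library other than Gsk3sKO replicate 2. The 4 long (alpha) protein-coding transcripts of Nrxn2, those with at least 1000 codons, summed to 37.9, 31.9 and 29.6 FPKM in Ctrl and 37.0, 32.7 and 18.4 in Gsk3sKO, and the groups overlapped. The 2 short (beta) transcripts, which start at the internal promoter, summed to 13.2, 19.0 and 13.8 FPKM in Ctrl and 4.29, 11.8 and 8.22 in Gsk3sKO. Every Gsk3sKO library was below every Ctrl library in the short sum, with means of 15.3 ± 3.19 and 8.09 ± 3.73 FPKM (SD, n = 3 each; exact permutation p = 0.1). As a share of the Nrxn2 total, the short transcripts made up 27.8% ± 5.82 in Ctrl and 18.4% ± 8.10 in Gsk3sKO (SD, n = 3 each), and these shares overlapped (exact permutation p = 0.2).

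Within Nrxn2 the division among transcripts moved from library to library. Nrxn2-202 (ENSMUST00000113458), a short transcript of 660 codons, had 13.2, 17.4 and 4.84 FPKM in Ctrl and 0.760, 0.709 and 8.22 in Gsk3sKO. The groups overlapped, and the log2 difference was called at -1.93 (SE 0.79, unadjusted p = 0.0480, adjusted p = 0.842 in limma), with Ctrl replicate 3 below Gsk3sKO replicate 3. The call was lost under median-ratio rescaling, with limma without a trend, with a filter at 5 FPKM, with an ordinary linear model, and without Ctrl replicate 1 or 2 or Gsk3sKO replicate 1 or 2, and its log2 difference lay between -2.73 and -1.52 over the 6 fits with 1 library left out. The other short transcript, Nrxn2-203, had 0, 1.55 and 8.94 FPKM in Ctrl and 3.53, 11.04 and 0 in Gsk3sKO. Nrxn2-204, the long transcript with the highest mean, had 32.1, 24.5 and 11.2 FPKM in Ctrl and 20.1, 17.2 and 2.88 in Gsk3sKO (log2 difference -0.93, SE 0.73, adjusted p = 0.890 in limma). It was the leading Nrxn2 transcript in 5 of 6 libraries, and Nrxn2-205 led in Gsk3sKO replicate 3.

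The long Nrxn2 transcripts differ in cassette exons and 1 exon extension. The sequences of 2 of these exons are shown since they set the alternative forms apart in the table. Both are annotated as coding, on the plus strand of GRCm38, and were read from the GENCODE M21 transcripts at chr19:6450528-6450599 and chr19:6488784-6488810.
Nrxn2 72-base exon: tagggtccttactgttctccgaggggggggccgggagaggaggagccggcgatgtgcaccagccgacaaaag
Nrxn2 27-base exon: actgcctgcgcgtcggctgcgcaccca
Inclusion was estimated as the FPKM of transcripts with an exon over that of transcripts with and without it, a measure added after the values were seen. Only protein-coding transcripts without an incomplete annotation were used, so it is not the inclusion in all RNA of a gene. The transcripts left out held 40.0% to 70.7% of the Nrxn3 total and 0.797% to 63.4% of the Nlgn3 total. The 72-base and 27-base exons occur in the same listed transcripts, so they share 1 estimate, 33.5% ± 25.2 in Ctrl and 59.1% ± 21.8 in Gsk3sKO (SD, n = 3 each; exact permutation p = 0.3), with overlapping groups. A 21-base extension at chr19:6463848-6463868 was included at 8.45% ± 11.8 and 11.3% ± 19.6 (SD, n = 3 each; exact permutation p = 1.0). A 24-base exon at chr19:6463824-6463847 was included at 82.1% ± 6.81 and 81.0% ± 24.97 (SD, n = 3 each; exact permutation p = 1.0).

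Nrxn3 (ENSMUSG00000066392, chromosome 12 from 88722876 to 90334935, plus strand) encodes neurexin-3 over a locus of 1612 kb, the longest of the 8. Its gene total was 41.1, 51.2 and 60.8 FPKM in Ctrl and 53.4, 58.0 and 38.9 in Gsk3sKO. The lowest and the highest library belonged to different groups, Gsk3sKO replicate 3 and Ctrl replicate 3, and the log2 difference was -0.03 (SE 0.20, adjusted p = 0.987 in limma), or 0.03 after rescaling to the median ratio. Its 3 long protein-coding transcripts summed to 24.9 ± 7.71 FPKM in Ctrl and 23.1 ± 11.1 in Gsk3sKO, and its 2 short ones to 1.98 ± 0.321 and 2.15 ± 1.23 (SD, n = 3 each; exact permutation p = 0.9 and 0.8). The short form made up 3.89% ± 0.214 of the Nrxn3 total in Ctrl, beside the 27.8% for Nrxn2, and in every library the short share was lower in Nrxn3, at 2.104% to 5.61%, than in Nrxn2, at 9.33% to 34.5%. The other 8 listed Nrxn3 transcripts have no full coding annotation (retained introns, processed transcripts and candidates for nonsense-mediated decay) and made up 40.0% to 70.7% of the total. The leading transcript, Nrxn3-205 (ENSMUST00000163134, 1571 codons), had 15.9, 21.9 and 20.04 FPKM in Ctrl and 25, 20.9 and 7.94 in Gsk3sKO (log2 difference -0.23, SE 0.42, adjusted p = 0.950 in limma). Of the 11 tested Nrxn3 transcripts, 0 were called and 0 were free of overlap between the groups, beside 5.56% and 11.2% of all tested transcripts. A noncoding 101-base exon at chr12:88954811-88954911 was included at 8.35% ± 1.87 in Ctrl and 9.39% ± 4.81 in Gsk3sKO (SD, n = 3 each; exact permutation p = 0.8). A 27-base coding exon at chr12:89517906-89517932 was included at 19.4% ± 17.2 in Ctrl and 22.3% ± 12.9 in Gsk3sKO, and a 9-base extension at chr12:90283651-90283659 at 7.57% ± 1.12 and 8.18% ± 1.09 (SD, n = 3 each; exact permutation p = 1.0 and 0.6). The coding transcripts with this extension are the 2 short ones, and those without it are the 3 long ones. Its value therefore restates the split between short and long transcripts and cannot show a choice of exon within either form.

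The 3 neuroligin genes encode postsynaptic partners of the neurexins. Nlgn1 (ENSMUSG00000063887, chromosome 3 from 25426215 to 26332460, minus strand) had a gene total of 24.0, 22.7 and 14.02 FPKM in Ctrl and 26.7, 21.0 and 9.29 in Gsk3sKO. Replicate 3 was the lowest library in both groups, and the log2 difference was -0.17 (SE 0.37, adjusted p = 0.947 in limma). Without Gsk3sKO replicate 3 the sign turned, to 0.25. Its 4 coding transcripts fall into a form of 843 codons (Nlgn1-201 and Nlgn1-205), which has a 60-base exon at splice site A and a 27-base extension at splice site B, and a form of 814 codons (Nlgn1-202 and Nlgn1-203), which has neither. The insert at splice site B is known to weaken binding to alpha-neurexins. Both are on the minus strand, at chr3:25920178-25920237 and chr3:25439865-25439891, and are shown because they alone separate the forms.
Nlgn1 60-base exon: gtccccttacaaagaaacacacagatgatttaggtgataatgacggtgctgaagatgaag
Nlgn1 27-base exon: gtaaccgttggagcaattcaaccaaag
The long form made up 82.8%, 73.4% and 43.9% of the coding FPKM in Ctrl and 89.2%, 8.74% and 66.2% in Gsk3sKO. The means were 66.7% ± 20.3 and 54.7% ± 41.5 (SD, n = 3 each; exact permutation p = 0.7), and 4 different transcripts led in the 6 libraries. Nlgn1-201 had 15.2, 13.1 and 0 FPKM in Ctrl and 18.6, 0 and 0 in Gsk3sKO. Nlgn1-202, its counterpart without the inserts, had 3.10, 4.43 and 0 FPKM in Ctrl and 0, 18.6 and 0 in Gsk3sKO. Nlgn1-205, with a longer 3′ part, had 1.39, 0.801 and 5.95 FPKM in Ctrl and 1.59, 1.83 and 5.90 in Gsk3sKO. The zeros of Nlgn1-201 and Nlgn1-202 fell in libraries where the Nlgn1 total was at 9.29 to 26.7 FPKM, so which transcript the reads were given to changed between replicates of a group.

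**Figure D3:**
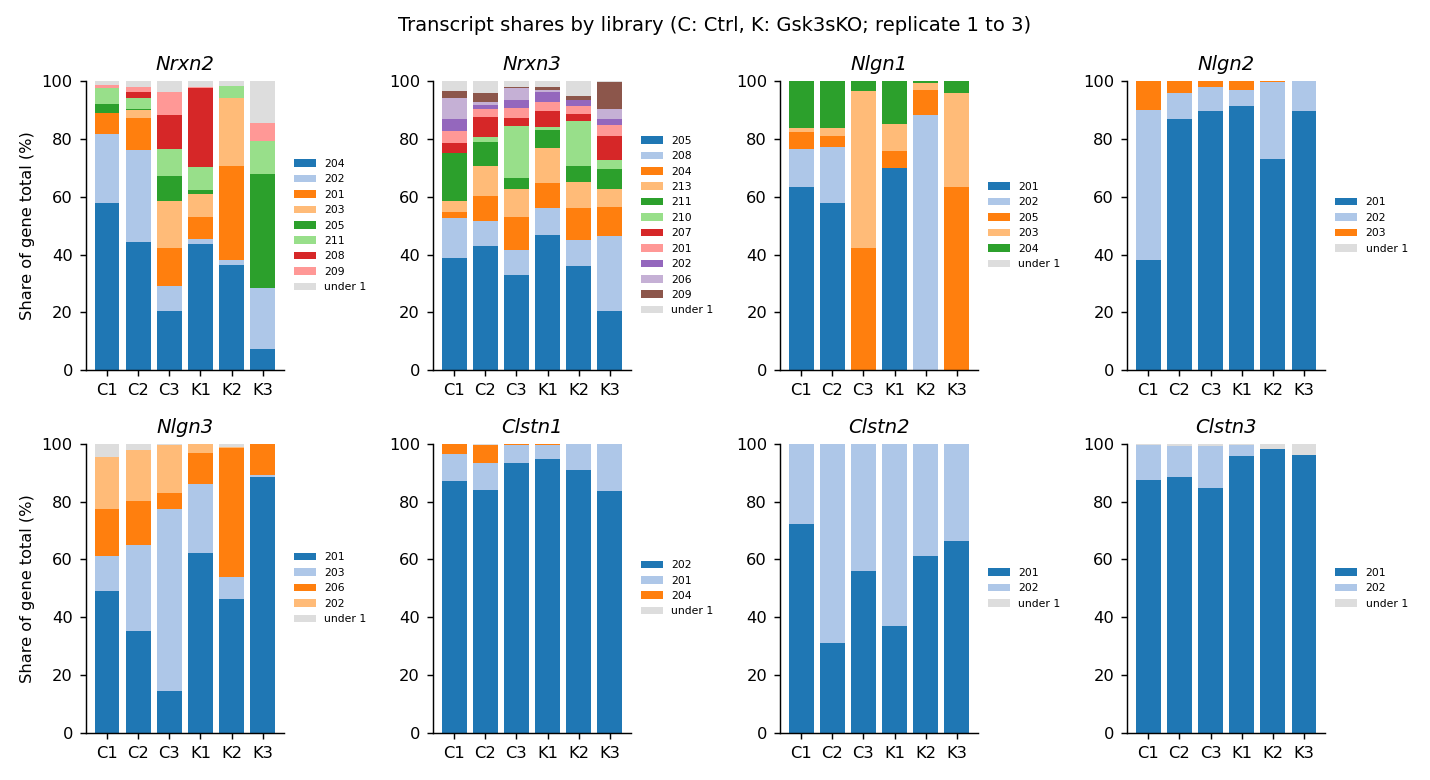
Share of the gene total in percent given to each tested transcript (numbers in the legend are the transcript suffixes; grey is the sum of transcripts with a mean under 1 FPKM) in Ctrl (C1 to C3) and Gsk3sKO (K1 to K3) replicates. Clstn1-202 and Clstn3-201 lead in all 6 libraries, while Nlgn1 has 4 different leading transcripts.

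Nlgn2 (ENSMUSG00000051790, chromosome 11 from 69823122 to 69837784, minus strand) was the member with the smallest difference in its total. The gene total was 37.4, 30.8 and 37.1 FPKM in Ctrl and 40.3, 33.2 and 32.0 in Gsk3sKO. The log2 difference was 0.00 (SE 0.15, adjusted p = 0.999 in limma), and the sign turned between fits with 1 library left out, from -0.10 to 0.06. Nlgn2-201 and Nlgn2-202 encode the same 836 codons and differ in the noncoding part at the 5′ end. Nlgn2-201 had 14.2, 26.8 and 33.2 FPKM in Ctrl and 36.8, 24.2 and 28.7 in Gsk3sKO (log2 difference 0.32, SE 0.34, adjusted p = 0.897 in limma). It led in 5 of 6 libraries, and Ctrl replicate 1 was the exception, with Nlgn2-202 at 19.5 FPKM.

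Nlgn3 (ENSMUSG00000031302, chromosome X from 101299168 to 101325963, plus strand) had overlapping gene totals but a transcript that was lower in Gsk3sKO. The gene total was 22.6, 19.6 and 34.8 FPKM in Ctrl and 30.9, 21.2 and 16.0 in Gsk3sKO (log2 difference -0.18, SE 0.28, adjusted p = 0.932 in limma). Nlgn3-202 (ENSMUST00000118111) had 4.13, 3.47 and 5.73 FPKM in Ctrl and 0.974, 0.0521 and 0.00571 in Gsk3sKO. All 3 Gsk3sKO libraries were under 1 FPKM and all 3 Ctrl libraries were above them, and the means were 4.44 ± 1.16 and 0.344 ± 0.546 FPKM (SD, n = 3 each). Gsk3sKO replicates 2 and 3, where Nlgn3-202 was lowest, also had the fewest transcripts above 0. The log2 difference was -2.07 (SE 0.44, unadjusted p = 0.00281, adjusted p = 0.563 in limma). As a share of the Nlgn3 total it was 18.2%, 17.7% and 16.5% in Ctrl and 3.16%, 0.246% and 0.0356% in Gsk3sKO. The share of Nlgn3-202 was thus nearly even across the Ctrl libraries while the gene total was not, and it was 1 of 3 member shares called (3 of 38, or 7.90%, where 4.81% of all tested shares were called, 2.47% lower and 2.34% higher; unadjusted p = 0.00392 and adjusted p = 0.577 in limma on the arcsine square root of the share). Of the 38 shares 4 did not overlap between the groups, beside 9.97% of all tested shares. The FPKM call of Nlgn3-202 was kept in every FPKM alternative in which it was tested, with log2 differences of -2.38 to -1.90 when 1 library was left out.

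Nlgn3-202 differs from Nlgn3-201 (ENSMUST00000065858) only at the 5′ end. Both have 7 exons, and the second exon runs from 101301785 to 101302431 (647 bases) in Nlgn3-201 but starts at 101302288 (144 bases) in Nlgn3-202, so the annotated coding sequence has 711 in place of 825 codons and starts at base 101302326 in place of 101301984. The 15 bases on each side of the join of the first exon (lower case) to the second exon (capitals) tell them apart.
Nlgn3-201 join: ccgcctagggaacagGCCTGTCTGGCCCTA
Nlgn3-202 join: ccgcctagggaacagTGTGCCCCCAGAACA
Nlgn3-201 had 11.1, 6.94 and 5.05 FPKM in Ctrl and 19.3, 9.82 and 14.2 in Gsk3sKO. Its log2 difference of 0.84 was in the opposite direction (SE 0.36, unadjusted p = 0.0553, adjusted p = 0.842 in limma) and did not pass the threshold, with Gsk3sKO replicate 2 below Ctrl replicate 1. It was called without Ctrl replicate 1 (log2 difference 1.11), without Gsk3sKO replicate 2 (1.07) and under median-ratio rescaling (0.89). The sum of the 3 coding transcripts was 15.01 ± 3.38 FPKM in Ctrl and 19.6 ± 3.84 in Gsk3sKO (SD, n = 3 each; exact permutation p = 0.2). Nlgn3-203, an incomplete annotated transcript, had 2.73, 5.79 and 21.9 FPKM in Ctrl and 7.31, 1.57 and 0.128 in Gsk3sKO, and it made up most of the Nlgn3 total in Ctrl replicate 3 alone. Nlgn3-206 carries a 60-base exon at splice site A that the other coding transcripts lack, at chrX:101303072-101303131, plus strand.
Nlgn3 60-base exon: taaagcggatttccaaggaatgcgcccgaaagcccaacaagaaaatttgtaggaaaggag
Its inclusion was 19.0% ± 3.46 in Ctrl and 24.7% ± 21.2 in Gsk3sKO (SD, n = 3 each; exact permutation p = 1.0), with 49.0% in Gsk3sKO replicate 2 and 10.9% to 14.1% in the other two.

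**Figure D4:**
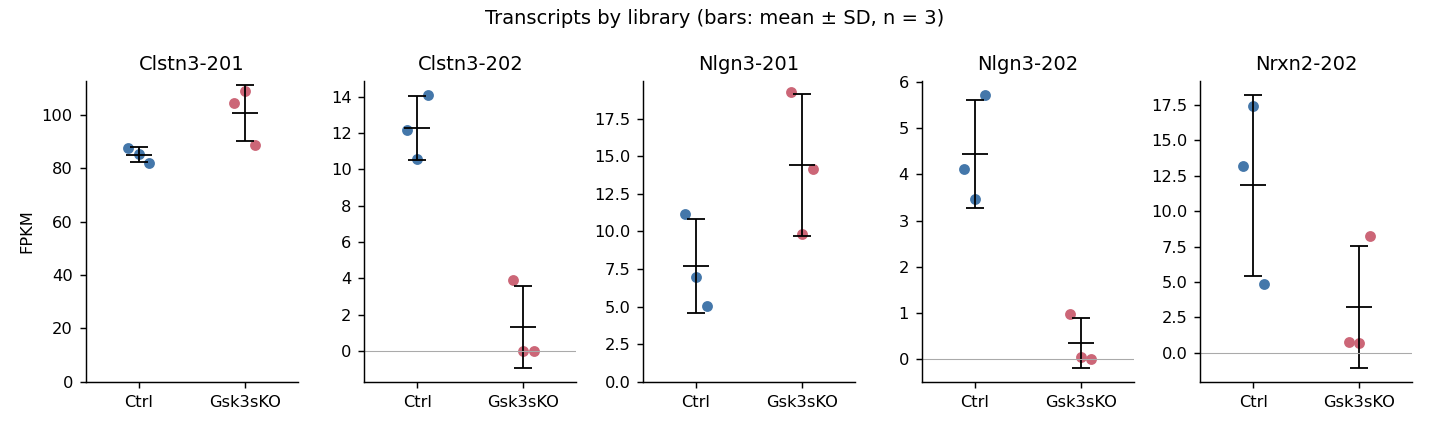
FPKM of 5 transcripts in each Ctrl (blue) and Gsk3sKO (red) library, with the mean and SD of 3 libraries as bars on a linear axis. Clstn3-202 and Nlgn3-202 have no overlap between the groups and lie lower in Gsk3sKO, Clstn3-201 has none and lies higher at 88.7 to 109 FPKM, and Nlgn3-201 and Nrxn2-202 overlap.

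Clstn3 (ENSMUSG00000008153, chromosome 6 from 124430759 to 124464794, minus strand), the gene of calsyntenin-3, had a steady total. The split between its 2 full-length transcripts differed at the unadjusted threshold only. The gene total was 100.4, 96.6 and 96.9 FPKM in Ctrl and 109, 111 and 92.1 in Gsk3sKO (log2 difference 0.08, SE 0.13, adjusted p = 0.933 in limma). Clstn3-202 (ENSMUST00000112523) had 12.2, 10.6 and 14.1 FPKM in Ctrl and 3.92, 0 and 0 in Gsk3sKO (log2 difference -2.96, SE 0.67, unadjusted p = 0.00384, adjusted p = 0.601 in limma). It was below every Ctrl library in all 3 Gsk3sKO libraries, and 2 of them listed it at 0. These were Gsk3sKO replicates 2 and 3, which had the fewest transcripts above 0. Ctrl replicate 1 was next in that number and had Clstn3-202 at 12.2 FPKM. The part of detection in this difference was not tested. Clstn3-201 (ENSMUST00000008297) had 87.7, 85.3 and 82.1 FPKM in Ctrl and 104, 109 and 88.7 in Gsk3sKO, with all 3 Gsk3sKO libraries higher (log2 difference 0.24, SE 0.13, unadjusted p = 0.110, adjusted p = 0.857 in limma). The 2 transcripts together summed to 97.3 ± 2.22 FPKM in Ctrl and 101.9 ± 11.5 in Gsk3sKO (SD, n = 3 each; exact permutation p = 0.4). The share of Clstn3-201 was 87.4%, 88.3% and 84.7% in Ctrl and 95.9%, 98.3% and 96.3% in Gsk3sKO (unadjusted p = 0.0216, adjusted p = 0.868 in limma). Its counterpart Clstn3-202 held 12.6% ± 1.84 of the total in Ctrl and 1.20% ± 2.08 in Gsk3sKO (SD, n = 3 each; unadjusted p = 0.00888, adjusted p = 0.690 in limma). The call of the Clstn3-201 share was lost without Gsk3sKO replicate 2, while the FPKM of Clstn3-201 was called without Gsk3sKO replicate 3 (log2 difference 0.32). The 2 shares are parts of nearly the same whole, so their calls are not independent of each other.

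These Clstn3 transcripts share all exons but the first. The first exon is 374 bases at 124464421 to 124464794 in Clstn3-201 and 63 bases at 124462682 to 124462744 in Clstn3-202, and translation is annotated to start in exon 1 of the former (956 codons) and in exon 2 of the latter (919 codons). The 15 bases before (lower case) and after (capitals) the join to the shared second exon are as follows.
Clstn3-201 join: gctctggcaacaaagCCAACAAGCACAAGC
Clstn3-202 join: gttgaaatccagcagCCAACAAGCACAAGC
Because the 2 transcripts start at different places, the 250 bases before each RefSeq start are shown, from RefSeq on GRCm38.p6, minus strand, at chr6:124464785-124465034 and chr6:124462745-124462994, with CG pairs in capitals.
Clstn3-201 promoter: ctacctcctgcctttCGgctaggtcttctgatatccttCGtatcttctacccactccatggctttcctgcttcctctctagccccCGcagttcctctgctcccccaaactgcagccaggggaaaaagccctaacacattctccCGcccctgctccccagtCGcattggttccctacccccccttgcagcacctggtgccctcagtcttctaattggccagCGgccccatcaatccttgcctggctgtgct
Clstn3-202 promoter: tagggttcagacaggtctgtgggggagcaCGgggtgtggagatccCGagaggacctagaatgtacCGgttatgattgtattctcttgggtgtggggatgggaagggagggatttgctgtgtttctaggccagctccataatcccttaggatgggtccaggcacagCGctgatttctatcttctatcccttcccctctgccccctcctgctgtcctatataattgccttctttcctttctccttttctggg
The former holds 6 CG pairs at a GC content of 58.4%, and 50.4% of 32851 RefSeq promoters of that length hold as many or more. The latter holds 4 CG pairs at a GC content of 52.4%, and 62.2% hold as many or more. The letters TATAAA, searched on both strands, are in neither window and in 12.4% of all promoters. Only these exact letters were searched, and the Clstn3-202 window holds the related letters tatataa near its end.

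Clstn1 (ENSMUSG00000039953, chromosome 4 from 149586468 to 149648899, plus strand) encodes calsyntenin-1, known as a link between kinesin and its cargo in axons. The gene total was 330, 318 and 359 FPKM in Ctrl and 378, 395 and 341 in Gsk3sKO. The groups overlapped, and the log2 difference was 0.15 (SE 0.13, adjusted p = 0.871 in limma). Clstn1-202 (ENSMUST00000105691, 969 codons) held 88.2% ± 4.80 of it in Ctrl and 89.9% ± 5.70 in Gsk3sKO (SD, n = 3 each) and had 287, 267 and 335 FPKM in Ctrl and 359, 360 and 285 in Gsk3sKO. Clstn1-201 adds a 30-base coding exon at chr4:149626087-149626116, plus strand, for 979 codons.
Clstn1 30-base exon: agagttttgaggtgacagtcaccaaagaag
It was included at 8.502% ± 2.17 in Ctrl and 9.94% ± 5.76 in Gsk3sKO (SD, n = 3 each; exact permutation p = 0.9). The third tested transcript, Clstn1-204 (ENSMUST00000151895), is annotated as a retained intron without a coding sequence. It had 11.8, 19.7 and 1.73 FPKM in Ctrl and 0.843, 0.535 and 0.590 in Gsk3sKO. All 3 Gsk3sKO libraries were under 1 FPKM, and the log2 difference was -2.44 (SE 0.76, unadjusted p = 0.0168, adjusted p = 0.811 in limma). Ctrl replicate 3 was far below the other Ctrl libraries, and the call was lost with an ordinary linear model and without Ctrl replicate 1 or 2 or Gsk3sKO replicate 2 or 3. Its first 82 bases, at chr4:149627130-149627211, are intronic in Clstn1-202, and they are shown because they set Clstn1-204 apart from the coding transcripts at that end.
Clstn1-204 intronic start: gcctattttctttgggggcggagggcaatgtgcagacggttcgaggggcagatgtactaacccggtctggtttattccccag

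Clstn2 (ENSMUSG00000032452, chromosome 9 from 97444395 to 98033181, minus strand), the third calsyntenin, had no difference beyond the spread. The gene total was 25.4, 34.6 and 30.8 FPKM in Ctrl and 30.6, 34.4 and 26.9 in Gsk3sKO (log2 difference 0.02, SE 0.17, adjusted p = 0.990 in limma). Its transcripts Clstn2-201 (966 codons) and Clstn2-202 (960 codons) differ at the 3′ end and shared the total about evenly, with 53.1% and 46.9% in Ctrl and 54.9% and 45.2% in Gsk3sKO. Clstn2-201 had 18.3, 10.8 and 17.2 FPKM in Ctrl and 11.3, 21.0 and 17.8 in Gsk3sKO. Clstn2-202 had 7.05, 23.8 and 13.6 FPKM in Ctrl and 19.2, 13.3 and 9.09 in Gsk3sKO. Clstn2-202 was the leading transcript in 1 library of each group.

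**Figure D5:**
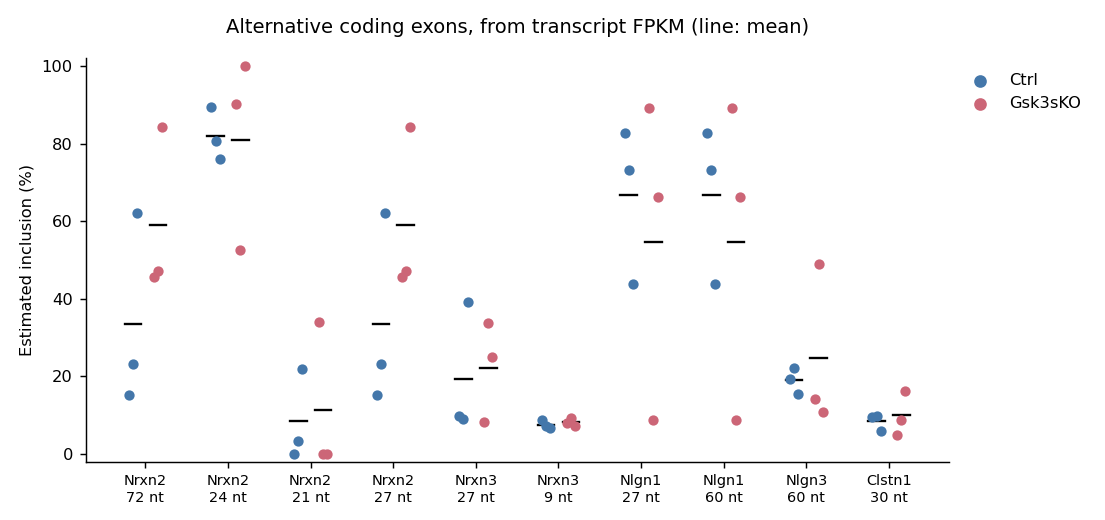
Estimated inclusion in percent of 10 alternative coding exons and exon extensions of 5 genes, from transcript FPKM, for each Ctrl (blue) and Gsk3sKO (red) library, with group means as lines. Only protein-coding transcripts without an incomplete annotation were used. The groups overlap for every exon, and the 9-base extension of Nrxn3, at 6.59% to 9.35%, varies least. That extension is listed only in the short Nrxn3 transcripts, so its value restates their split from the long ones.

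Over 11 alternative exons and extensions that were estimated in every library, 10 of them coding, the groups overlapped in each case and the lowest exact permutation p was 0.3. These are not 11 separate estimates. The 72-base and 27-base exons of Nrxn2 share 1 estimate, as do the 60-base and 27-base inserts of Nlgn1. The 9-base extension of Nrxn3 restates a split of transcripts. Exons were not estimated over all genes, and of all tested transcript shares only 9.97% did not overlap. Of 9 splicing regulators tested, 0 were called at an unadjusted p under 0.05 in limma, where 6.56% of all gene totals tested were called. With 9 genes a count of 0 is near that share and says little about them. Among the 9 were Khdrbs3 and Khdrbs2, whose proteins are known to act on neurexin splicing. Khdrbs3, the one with the highest level, was at 174 ± 28.3 FPKM in Ctrl and 172 ± 5.83 in Gsk3sKO (SD, n = 3 each; adjusted p = 0.997 in limma).

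Among 98 partner genes in 6 lists, 94 were tested and 4 were called, which is 4.26%, beside the 6.56% of all gene totals. All 4 were lower in Gsk3sKO, 0 passed adjustment (lowest adjusted p = 0.688 in limma), and the median log2 difference of the 94 was -0.01. Of 15 tested neurexin ligands 2 were lower. The first was Cbln2, a secreted cerebellin that bridges neurexins to glutamate delta receptors, at 13.0, 11.9 and 8.86 FPKM in Ctrl and 8.86, 5.85 and 4.44 in Gsk3sKO. Its groups touched at 8.86 without overlapping (log2 difference -0.76, SE 0.26, unadjusted p = 0.0200, adjusted p = 0.688 in limma). The second was C1ql3, a secreted C1q-like protein known to bind neurexin-3, at 103, 115 and 116 FPKM in Ctrl and 97.9, 91.1 and 82.1 in Gsk3sKO (log2 difference -0.30, SE 0.13, unadjusted p = 0.0486, adjusted p = 0.755 in limma). It had the highest level of the ligands. Of 13 intracellular partners of the neurexins, 1 was called: Lin7b, a small scaffold protein that binds Cask, was at 35.3 ± 4.71 FPKM in Ctrl and 26.4 ± 4.20 in Gsk3sKO (SD, n = 3 each; unadjusted p = 0.0465, adjusted p = 0.752 in limma). The highest of these partners was Syt1, a calcium sensor of transmitter release, at 473 ± 27.3 FPKM in Ctrl and 524 ± 47.2 in Gsk3sKO (SD, n = 3 each; adjusted p = 0.876 in limma). Of 14 genes of calsyntenin cargo and processing, 1 was called: Aph1a, a subunit of gamma-secretase, was at 4.47, 3.22 and 4.98 FPKM in Ctrl and 2.79, 2.43 and 1.32 in Gsk3sKO (unadjusted p = 0.0348, adjusted p = 0.741 in limma). Of the 14, 10 had differences above 0, and App, the amyloid precursor that calsyntenin-1 is known to travel with, was at 1216 ± 65.6 and 1296 ± 79.4 FPKM (SD, n = 3 each; adjusted p = 0.933 in limma). Of 11 neuroligin partners and 32 other synaptic adhesion organisers, 0 were called. The highest in these lists were Sparcl1, which encodes a secreted protein, at 718 ± 26.7 and 756 ± 59.1 FPKM, and the contactin gene Cntn1, at 120 ± 9.70 and 123 ± 9.96 FPKM (SD, n = 3 each). Without Gsk3sKO replicate 3 the count of called partners was 0, without Gsk3sKO replicate 2 it was 2, and without Gsk3sKO replicate 1 it was 6.

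Some cell type markers were lower in Gsk3sKO. Of 6 oligodendrocyte markers 3 (Mog, Mag and Cnp) were lower in Gsk3sKO at an unadjusted p under 0.05 in limma, and Mog was listed at 0 in 2 Gsk3sKO libraries, while the summed list was 118 to 183 FPKM in Ctrl and 128 to 165 in Gsk3sKO. Of 5 tested microglia markers 1 (C1qa) was lower, with summed levels of 25.5 to 32.3 and 23.1 to 31.2 FPKM. Of 6 excitatory neuron markers 1 (Tbr1) was lower, at 27.4 ± 1.18 FPKM in Ctrl and 20.6 ± 2.66 in Gsk3sKO (SD, n = 3 each), with summed levels of 390 to 428 and 378 to 411 FPKM. The adjusted p was above 0.05 for each of these 5 genes. Inhibitory neuron markers summed to 990 to 1318 FPKM in Ctrl and 935 to 1029 in Gsk3sKO, with 0 of 6 called. The part of these markers in the lower Nrxn2 total and in the transcripts above was not tested.

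The gene totals with the profile most like that of Nrxn2 over the 6 libraries were Stim1, Fbxo42 and Usp13, by the root mean square difference of mean-centred log2(FPKM + 1), at 0.0223, 0.0244 and 0.0273. For Clstn1 they were Ncam1, Copb2 and App, at 0.0298, 0.0317 and 0.0361. These are the closest of 12874 gene totals over 6 libraries and are given as a description.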

How the data were processed

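RiboTag RNA of 3 Ctrl and 3 Gsk3sKO libraries was sequenced. The authors deposited FPKM per transcript and library, and per the labels HISAT2 2.1.0, SAMtools 1.9 and StringTie 1.3.4d were used on GRCm38, with settings not given in the sources used here. The fold ratio, p-value and q-value columns that the authors deposited for their own comparison were not used, and 0 other columns per library were left out. StringTie estimates how reads divide among overlapping transcripts, so 1 transcript can lose what another gains.

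All 115220 transcripts were kept, and 114237 matched GENCODE M21 (GRCm38). Gene totals are sums of FPKM by gene identifier. Transcripts and gene totals with a mean of at least 1 FPKM, and transcript shares on the arcsine square root scale, were fitted with limma 3.58.1 in R 4.3.3 (lmFit, trended eBayes), FPKM as log2(FPKM + 1), with no covariate, 2-sided, with Benjamini-Hochberg adjustment over all features tested. A call is an unadjusted p under 0.05. Sums and exon inclusion were compared by 2-sided exact permutation over libraries (smallest p 0.1). No 2 libraries were identical (Pearson's r of log2 values across transcripts 0.844 to 0.902, with transcripts not independent). Values are printed in every library for all members, for the leading transcript of each gene, for transcripts called or holding at least 20% of a gene total, and for a few others chosen after their values were seen, such as Nrxn2-203. Among partners, those called and the highest of each list are named. The fits were tested on simulated data. Members, partner lists and marker lists were chosen with earlier results of these data known. Alternatives were pseudocounts of 0.1 and 0.5, no filter or a filter at 5 FPKM, median-ratio rescaling, limma without a trend, an ordinary linear model, a replicate block, protein-coding transcripts only, shares in percentage points, and leaving out each library. Figures were made with Python 3.11.15 and matplotlib 3.10.9. An alternative exon of Nrxn2 is not reported here.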

Additional observations from a re-analysis of the deposited data

How the results depend on the processing

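The table holds no counts, so counting error could not be given and low transcript values are only as firm as their spread. The 4 called member transcripts became 2 with a filter at 5 FPKM (which removes Nlgn3-202) and 2 with an ordinary linear model, and 2 to 4 with 1 library left out. The 1 called gene total, Nrxn2, became 0 after median-ratio rescaling, with limma without a trend, and with protein-coding transcripts only, and 0 to 1 with 1 library left out. Called shares stayed within 2 to 4 in all alternatives, and 2 to 4 with 1 library left out. The 4 called partners became 2 after rescaling and 2 with limma without a trend, and 0 to 6 with 1 library left out. For these changes the cause was not tested beyond the filter's own removal of transcripts.

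Signs turned mostly where differences were near 0. After rescaling, the Nrxn3 total was at 0.0275. With 1 library left out, log2 differences of gene totals ran from -0.17 to 0.14 for Nrxn3, -0.46 to 0.25 for Nlgn1, -0.099 to 0.064 for Nlgn2, -0.42 to 0.054 for Nlgn3 and -0.10 to 0.12 for Clstn2. Those of transcripts ran from -0.017 to 0.57 for Nlgn2-201, -0.52 to 0.25 for Nrxn3-205, -0.20 to 0.83 for Nlgn1-205, -1.49 to 0.65 for Nlgn1-202, -0.12 to 0.34 for Clstn2-201 and -0.41 to 0.40 for Clstn2-202. Over all results and alternatives, 335 values kept direction and side of the threshold, 25 lost the call, 7 gained it and 23 turned sign.

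The replicate numbers did not pair the samples: deviations of same-numbered Ctrl and Gsk3sKO libraries from their group means correlated at -0.03, -0.01 and -0.08 across features, and no library correlated best with its own number. With the replicate number as a block, 5 member transcripts, 0 gene totals, 2 shares and 2 partners were called. The block added calls for Nlgn3-201 and Nrxn2-204, and the calls for the Nrxn2 total, Nrxn2-202 and the Clstn3-201 share were not made in it.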
